A study of Mus musculus with 2 samples.

Results

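A set of 10 genes of the smooth muscle and serum response factor (SRF) programme were followed in cultured primordial germ cells (PGCs), the embryonic precursors of eggs and sperm. They are Srf, Acta2, Actg2, Tagln, Cnn1, Cnn2, Myl9, Tpm1, Tpm2 and Vcl, and all 10 were found by exact symbol among the 23320 gene symbols that both expression files share. PGCs were sorted by GFP from the genital ridges of male and female E13.5 embryos, the offspring of MCH females and Oct4-deltaPE-GFP transgenic males of a C57BL/6J background, and were infected at MOI 5 with lentivirus that delivers the coding region of Klf9 (Klf9-OE PGCs) or with a control lentivirus (control PGCs). Each was cultured for 1 day and gave 1 RNA-seq library. The wells were coated with gelatin, with no feeder layer named for these cultures. The medium contained bFGF by the sample labels but lacked it by the published description. Expression values were deposited as FPKM, called RPKM here because the reads are single-end, each with a 95% interval from Cufflinks that covers the estimation within a library and not the difference between cultures. With 1 library per condition there was no replicate check on any difference, and no test was made.

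SRF is a transcription factor that binds the CArG box, a run of 6 A or T bases between CC and GG. It works with myocardin-related cofactors, which respond to the pool of unpolymerised actin, and with ETS-family cofactors, which respond to ERK signalling, so that its targets include both contractile and cytoskeletal genes and immediate early genes. Acta2, Actg2, Tagln, Cnn1 and Myl9 are known as genes of smooth muscle and of contractile stromal cells such as myofibroblasts, while Cnn2, Tpm1 and Vcl are used more widely.

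The CArG boxes of these genes are shown because they are the sequence through which SRF acts. RefSeq promoter windows of build GRCm38.p6, from 250 bases before to 50 bases after a transcript start, were matched for 8 of the genes. Srf carried a pair of CArG boxes (chr17:46556225-46556254 and chr17:46556205-46556234, reverse strand), and 1 each was found at Cnn2 (chr10:79988534-79988563, forward strand), Myl9 (chr2:156775293-156775322, forward strand) and Vcl (chr14:20929161-20929190, forward strand). A box with 1 G or C in its core occurred at 2 places of Acta2 (chr19:34255438-34255467 and chr19:34255388-34255417, reverse strand) and at 1 place of Myl9 (chr2:156775355-156775384, forward strand). The box is in capitals in the following windows of 30 bases, read 5′ to 3′ on the strand of the gene.
Srf, upstream box: ctggggctcgCCATATAAGGagcggcctcg
Srf, downstream box: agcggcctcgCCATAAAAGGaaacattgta
Cnn2: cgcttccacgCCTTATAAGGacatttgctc
Myl9: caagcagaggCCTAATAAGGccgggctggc
Vcl: cccactatgcCCTTATAAGGagcgccccgc
Acta2, upstream box, 1 C in the core: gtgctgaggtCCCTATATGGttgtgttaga
Acta2, downstream box, 1 G in the core: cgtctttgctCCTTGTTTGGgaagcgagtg
Myl9, box with 1 G in the core: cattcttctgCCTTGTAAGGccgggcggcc

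The boxes of Srf began 82 and 62 bases before the transcript start (positions -82 and -62), that of Cnn2 at -56, that of Myl9 at -161 and that of Vcl at -227. In the windows of Cnn1, Tpm1 and Tpm2 neither form of the box was found. Tagln and Actg2 had no window in the table. Of all 32851 promoter windows, 1.63% held a CArG box and 9.98% held one with at most 1 G or C in the core. The pattern of the box is the same on both strands, though the bases of a single box need not be. Since the genes were listed as SRF targets, the share of them with a box is a description.

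**Figure D1:**
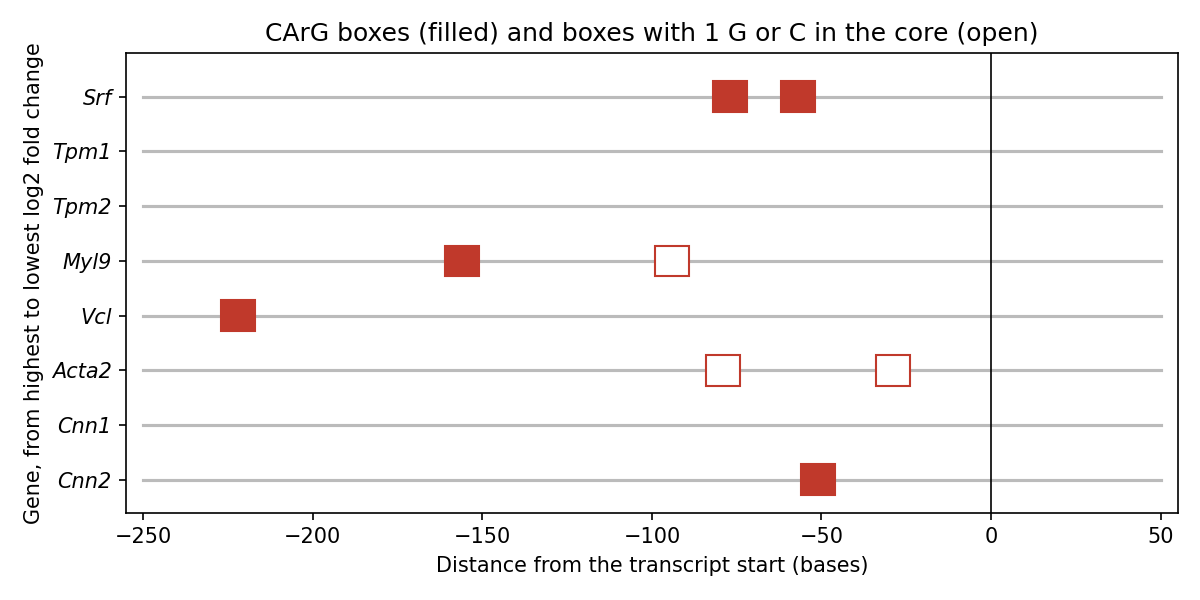
Position of each CArG box in the promoter windows of 8 genes, by distance from the transcript start in bases. Genes are ordered by log2 fold change with Srf on top, filled boxes have a core of A and T alone and open boxes have 1 G or C, and the filled boxes of Srf and Cnn2, at -82, -62 and -56, lie nearer to the start than those of Myl9 and Vcl.

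The RPKM of Klf9 itself was 2.27 in control PGCs (1.97 to 2.57). In Klf9-OE PGCs it reached 80.8 (77.0 to 84.5), which is 35.6-fold higher and in the direction of the labels. Germ cell markers were high in both libraries, with an RPKM of 541 and 557 for Sycp3, 351 and 378 for Dazl, and 387 and 277 for Pou5f1, in control and Klf9-OE PGCs, respectively. Read totals are not in the files, but each interval implies a number of reads. It was taken as (2 RPKM/d) squared, where d is the distance from the RPKM to its upper bound. This number follows the width of the interval and is not a count. For Myocd in control, at 0.326 with an upper bound of 43.1, it cannot be a number of reads. Per unit of RPKM, the Klf9-OE library held 1.22 times as many implied reads as the control library (median over 3888 genes with annotated records in both files, quartiles 1.20 and 1.23). Klf9 had an assembled record in both files. Its implied reads were 229.6 in control and 1825 in Klf9-OE, a far smaller rise than that of its RPKM. The size of its difference therefore depends on the measure, and the cause was not tested. In the Klf9-OE library the implied number was even for 88.6% of 1766 genes with 1 to 9 reads (95% Wilson interval 87.1% to 90.0%), against 36.4% of 2109 genes in control (34.3% to 38.4%). The interval comparison was therefore also made with the Klf9-OE interval widened by the square root of 2. These Wilson intervals cover counting error only. The cause of the even share was not tested. Implied reads and log2 intervals given below were not adjusted for it, so in Klf9-OE the reads may be overstated and the intervals too narrow. For the same reason the ratio of 1.22, called the depth ratio below, is not shown to be a ratio of sequenced reads.

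The smooth muscle and SRF target genes did not move as a block. Srf, Tagln and Tpm1 had a higher RPKM in Klf9-OE PGCs and Cnn2 a lower one, each with intervals that did not overlap between the libraries, and the intervals of Acta2, Actg2, Cnn1, Myl9, Tpm2 and Vcl overlapped. Across all genes the same rule called 11.2% higher and 14.4% lower, beside 3 and 1 of the 10 genes, and within the 12565 genes that reached an RPKM of 1 in either library it called 14.8% and 20.2%. Only Actg2 differed by at least 2-fold, and it was higher, where this threshold called 9.82% of all genes higher and 9.43% lower, or 3.93% and 3.79% of those that reached an RPKM of 1. The median log2 fold change of the 10 genes was 0.19, beside -0.015 over all 18742 genes above 0 in at least 1 library. It was -0.07 over the 4 genes with annotated transcript records in both files, among them Cnn1, which was near the lower end of detection. Srf, Tagln and Tpm1 are not among these 4. The implied reads of Srf did not follow its RPKM, as given with its values. In bulk RNA a change in the share of cells of a type and a change in RNA per cell cannot be told apart.

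Srf encodes the transcription factor itself and is also one of its own targets. Its RPKM was 13.1 in control PGCs (12.2 to 13.9) and 22.3 in Klf9-OE PGCs (20.9 to 23.7). The Klf9-OE value was 1.71 times the control value, a log2 fold change of 0.77, which lay above that of 94.9% of the genes that reached an RPKM of 1 in either library. In both files the value belongs to a record with transcripts assembled by Cufflinks from the reads, on chromosome 17 of mm10 from 46546839 to 46556162 in control and to 46556187 in Klf9-OE. In the Klf9-OE file, an assembled record of Cul7 (46543314 to 46664364) spans the whole of Srf, whereas in the control file Cul7 runs from 46650338 to 46664364 and does not reach it. Cul7 itself had an RPKM of 9.56 in control (9.04 to 10.1) and 12.1 in Klf9-OE (11.5 to 12.8). The intervals of Srf implied 947 reads in control and 987 in Klf9-OE, which over the depth ratio of 1.22 is a ratio of 0.854, on the other side of 1 from that of the RPKM. On the log2 scale the implied reads of Srf thus stood at -0.23, beside 0.77 for its RPKM. In records assembled in both files the interval and the RPKM do not always move together, and over 5713 such genes the log2 ratio of implied reads lay a median of -0.07 from that of RPKM (quartiles -0.24 and 0.11). For Srf, a higher RPKM is therefore not shown to be more reads, nor are its implied reads shown to be fewer reads. The part of the difference in assembly, with the Cul7 record, in its RPKM and its interval was not tested.

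Acta2 and Actg2 encode the smooth muscle alpha- and gamma-actins. Acta2, the more abundant, had an RPKM of 14.6 in both libraries (13.6 to 15.5 in control and 13.7 to 15.4 in Klf9-OE), a ratio of 0.999 with 932 implied reads in control and 1151 in Klf9-OE. The interval of its log2 fold change ran from -0.13 to 0.13. Actg2 had an RPKM of 0.654 in control PGCs (0.323 to 0.984) and 1.34 in Klf9-OE PGCs (0.958 to 1.72). The Klf9-OE value of Actg2 was 2.05 times that of control. Its log2 fold change was 0.93 with an interval from 0.19 to 1.67, wholly on the higher side, although the intervals of its RPKM overlapped. Its level was low in both libraries, with 15.7 and 49.3 implied reads. Actins resemble each other closely. Of the stretches of 51 bases, the read length, in the coding transcripts of Acta2, 0.280% also occurred without any change in transcripts of another gene. None of those of Actg2 did. Stretches that differ by a few bases were not counted, so reads of other actins placed with mismatches are not covered. Acta2 lies on chromosome 19 from 34240336 to 34255373 and Actg2 on chromosome 6 from 83512909 to 83536251.

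Tagln, Cnn1 and Cnn2 encode the actin-binding proteins transgelin and calponins, of which transgelin and calponin 1 are markers of differentiated smooth muscle. Tagln had an RPKM of 36.5 in control PGCs (34.0 to 39.0) and 57.7 in Klf9-OE PGCs (54.4 to 60.9). The Klf9-OE value was 1.58 times the control value, a log2 fold change of 0.66 that exceeded that of 93.7% of the same genes. The implied reads of Tagln were 861 and 1240.4, a ratio of 1.18 over the depth ratio, smaller than that of its RPKM. Cnn1 was close to the lower end of detection, with an RPKM of 0.448 in control (0.257 to 0.639) and 0.401 in Klf9-OE (0.236 to 0.565), from 22.0 and 23.7 implied reads. At this depth its log2 fold change could lie anywhere from -0.82 to 0.56. Cnn2, a calponin of non-muscle cells, went the other way, with an RPKM of 16.3 in control (14.9 to 17.7), 13.6 in Klf9-OE (12.4 to 14.8) and a log2 fold change of -0.26, from 537 and 544 implied reads. The bounds of Cnn2 were close to meeting, and they overlapped with the widened Klf9-OE interval, under which 8.46% of all genes were called higher and 12.0% lower.

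Tagln lies on chromosome 9 from 45929628 to 45936058. Its 3′ end overlaps the record of Pcsk7, a gene on the opposite strand, by 95 bases in both files. Pcsk7 was listed at 0 in both libraries, and an exact 0 can be a failed estimate. In the GENCODE annotation 47.3% of the 51-base stretches of Tagln also occur in transcripts of other genes, on the opposite strand, from Gm48529 and Pcsk7. The library kit does not mark strand, so reads of Tagln and of these transcripts cannot be told apart. Cnn1 (chromosome 9, 22099253 to 22109221) and Cnn2 (chromosome 10, 79988600 to 79995400) shared no such stretch with another gene. In the control file an assembled record that joins Ecsit, Zfp653 and a microRNA gene, with an RPKM of 69.9 (9.41 to 130.4), spans the whole of Cnn1, and its part in the control value was not tested.

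Myl9 encodes the regulatory light chain of smooth muscle and non-muscle myosin. Its RPKM was 9.17 in control PGCs (7.92 to 10.4) and 10.4 in Klf9-OE PGCs (9.23 to 11.6), with overlapping intervals and 215 and 304 implied reads. The log2 fold change of Myl9 was 0.18, with an interval from -0.07 to 0.44. Myl9 lies on chromosome 2 from 156775464 to 156781657.

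Tpm1 and Tpm2 encode tropomyosins, which lie along actin filaments and control the access of myosin. Tpm1 was the most abundant gene of the set, with an RPKM of 75.5 in control PGCs (71.7 to 79.3) and of 98.7 in Klf9-OE (94.8 to 103), a ratio of 1.31 and a log2 fold change of 0.39. Its implied reads, 1576 and 2637, gave a ratio of 1.37 over the depth ratio. Tpm2 was far lower, at 5.29 in control (4.63 to 5.94) and 6.04 in Klf9-OE (5.39 to 6.69), with overlapping intervals. GENCODE lists 16 coding transcripts of Tpm1 (chromosome 9, 67022593 to 67049213) and 4 of Tpm2 (chromosome 4, 43513726 to 43523554), muscle and non-muscle forms among them. These forms are not separated in the deposited values.

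Vcl encodes vinculin, which links actin filaments to cell adhesions. It had an RPKM of 39.9 in control (38.1 to 41.8) and 42.2 in Klf9-OE (40.4 to 44.1), a log2 fold change of 0.08 with an interval from -0.01 to 0.17. Its record on chromosome 14 runs from 20929402 to 21033673 in control, and the 3′ neighbour on the opposite strand, Ap3m1, shares 38.2% of the 51-base stretches of Vcl in GENCODE. The deposited records of these neighbours do not overlap. Ap3m1 had an RPKM of 28.2 in control (26.9 to 29.4) and 25.6 in Klf9-OE (24.4 to 26.8).

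**Figure D2:**
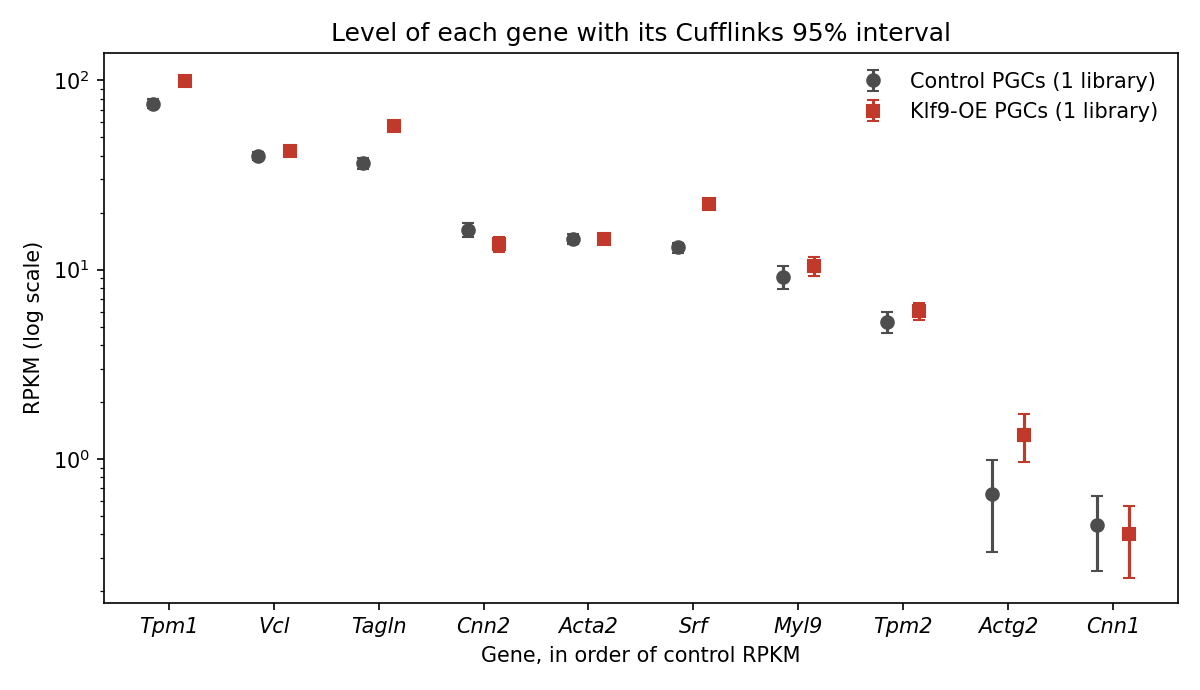
RPKM of each of the 10 genes on a log axis, in the control library (circles) and the Klf9-OE library (squares), with bars for the Cufflinks 95% interval. Tpm1 is highest and Cnn1 lowest in both control (75.5 and 0.448) and Klf9-OE (98.7 and 0.401), and the intervals of Tagln, Srf, Tpm1 and Cnn2 do not overlap between the libraries.

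RPKM is scaled to transcript length, so levels can be compared between genes as far as the length of each record is right. The order in control PGCs was Tpm1, Vcl, Tagln, Cnn2, Acta2, Srf, Myl9, Tpm2, Actg2 and Cnn1. The intervals of Vcl and Tagln overlapped, as did those of Cnn2 and Acta2, of Acta2 and Srf, and of Actg2 and Cnn1. Overlap does not show that these neighbours were equal, and their difference was not tested. In Klf9-OE PGCs Tagln lay above Vcl, and Srf above Acta2 and Cnn2. Srf and Vcl had assembled records in both files and Tagln in control, so these changes of order carry the limits given with their values. There the intervals of Acta2 and Cnn2 overlapped and those of every other pair of neighbours did not. Tpm1 lay above 93.5% of the genes above 0 in control and 95.4% of those above 0 in Klf9-OE, and Acta2 above 69.4% and 69.5%. The 10 values summed to an RPKM of 211 in control and 267 in Klf9-OE, a ratio of 1.26 with an interval of 1.22 to 1.31. Tpm1 and Tagln made up 79.4% of the summed difference of 55.8, with 23.2 and 21.1, respectively. The implied reads of Tagln rose less than its RPKM, and those of Srf did not follow its RPKM. The summed ratio includes both genes, and its interval does not cover this.

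None of the 3 genes that were higher with intervals apart had an annotated record in both files. Acta2, Cnn1, Cnn2 and Myl9 were quantified on annotated transcripts in both files, and their median log2 fold change was -0.07. This median lies between Acta2, at -0.001, and Cnn1, at -0.13 with an interval from -0.82 to 0.56. Srf, Tpm1 and Vcl had assembled records in both files, while Actg2, Tagln and Tpm2 had an assembled record in control and an annotated one in Klf9-OE. An assembled record can have another length than the annotated transcript, which enters the RPKM. Over the 1910 genes that reached an RPKM of 1 in both libraries and the same pair of records as Tagln, the median log2 fold change was -0.090 and 1.20% were at least 1.5-fold higher. Over the 5713 such genes with assembled records in both files, as for Srf, the median was -0.023 and 4.67% were at least 1.5-fold higher. For 2885 genes annotated in both, these values were -0.017 and 4.92%. For 1066 genes annotated in control and assembled in Klf9-OE, a class without any gene of the set, they were 0.053 and 10.6%. The length of the records of single genes was not compared. At the same threshold of 1.5-fold, Actg2, Srf and Tagln were higher and no gene of the set was lower, against 16.1% and 15.1% of all genes, or 7.50% and 8.46% of those that reached an RPKM of 1. No locus without a gene name overlapped any of the 10 genes in either file.

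**Figure D3:**
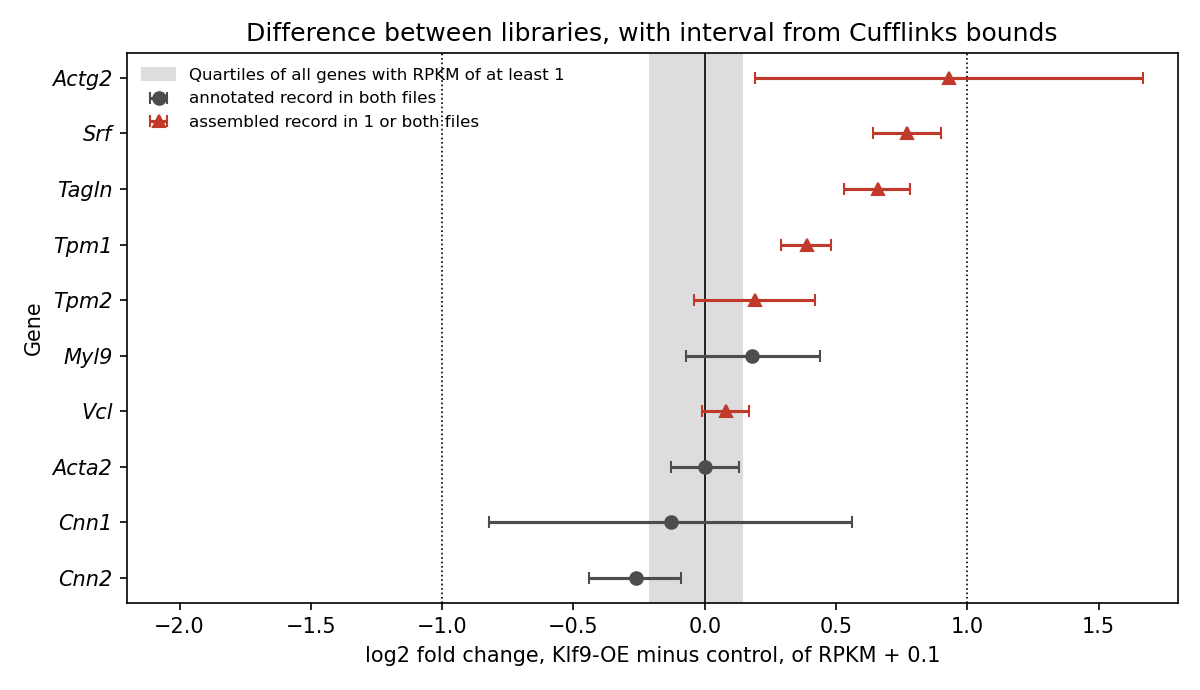
Log2 fold change of RPKM + 0.1, Klf9-OE minus control, for each of the 10 genes, with the interval derived from the Cufflinks bounds of both libraries. Triangles mark genes with an assembled record in at least 1 file, the grey band spans the quartiles of 12565 genes (-0.21 to 0.14), and dotted lines mark 2-fold. Actg2, Srf, Tagln and Tpm1 lie well to the right of the band, Tpm2 and Myl9, at 0.19 and 0.18, just to its right, and Cnn2, at -0.26, just to its left.

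The counts of genes with intervals apart in the lists that follow stand beside 11.2% higher and 14.4% lower over all genes, or 14.8% and 20.2% of those that reached an RPKM of 1. Their 2-fold counts stand beside 9.82% higher and 9.43% lower over all genes, or 3.93% and 3.79% of those that reached an RPKM of 1. The regulators of SRF went both ways. Of 16 listed cofactors and regulators 14 were matched, none differed by 2-fold, 4 were higher and 2 lower with intervals apart, and the median log2 fold change was 0.004. The most abundant were Rhoa, the small GTPase that drives actin polymerisation, at 139 and 129.7, and its effector kinases Rock1, at 28.6 (27.8 to 29.4) and 31.1 (30.3 to 31.9), and Rock2, at 16.9 and 19.6, both kinases with intervals apart. The cofactors Mkl1 and Mkl2, which carry the actin signal to SRF, had an RPKM of 13.3 and 14.3 in control and 12.7 and 13.4 in Klf9-OE, with overlapping intervals. Myocd, the cofactor of cardiac and smooth muscle, was at 0.326 and 0.267, and its control interval reached from 0 to 43.1. The ETS cofactor Elk3 was at 1.20 in control and 2.27 in Klf9-OE with intervals apart, the highest ratio of this list at 1.90. Smad3, which carries the TGF-beta signal, had the lowest ratio, 0.671, with intervals apart.

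Other contractile genes of smooth muscle were mixed. All 18 were above 0 and their median log2 fold change was -0.12. Of these, 2 were at least 2-fold lower and none was higher by as much. The lower ones were Myh11, the smooth muscle myosin heavy chain and its most specific marker, which was at 1.18 (0.956 to 1.41) in control and 0.521 (0.418 to 0.623) in Klf9-OE, and Mustn1, at 2.51 (1.82 to 3.20) and 0.916 (0.581 to 1.25). Both had an assembled record in control and an annotated one in Klf9-OE, the class in which 3.82% of genes were at least 2-fold lower and 0.262% higher. With intervals apart, 4 of the 18 were higher and 3 lower. The 3 most abundant were Pdlim7 at 34.1 and 29.8, Ppp1r12a, a subunit of myosin phosphatase, at 33.8 (32.2 to 35.3) and 44.0 (42.2 to 45.9), and Slmap at 25.3 and 28.9, the intervals of the last 2 being apart.

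Some of the paralogues were far more abundant than any of the 10 genes. Actb and Actg1, the cytoplasmic actins, had an RPKM of 433 and 264 in control and 444 and 277 in Klf9-OE, and Tpm3, near Tpm1 in level, had 92.0 and 94.6, all with overlapping intervals. Of 11 matched paralogues 2 were higher, 2 were lower with intervals apart, and none differed by 2-fold. The higher ones were Tagln2 at 50.8 (48.3 to 53.3) and 67.2 (63.4 to 71.1) and Tpm4 at 24.4 and 32.0. Both had an annotated record in control and an assembled one in Klf9-OE. In this class the median log2 fold change was 0.053, beside -0.017 for genes annotated in both files. The skeletal muscle actin Acta1, another SRF target, was at 9.41 (8.29 to 10.5) in control and 5.57 (4.81 to 6.34) in Klf9-OE, lower where Acta2 was level.

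SRF targets of actin filaments and adhesion were mixed. None of 18 differed by 2-fold, 6 were higher and 4 lower with intervals apart, and the median log2 fold change was -0.017. Pfn1, the actin monomer-binding profilin, was the most abundant at 267 (253 to 279.9) and 334 (319.6 to 348), followed by Cfl1 (cofilin) at 172 (167 to 177) and 198 (193 to 203). Actn1, an alpha-actinin that partners vinculin in adhesions, was at 107 (102 to 112) and 89.3 (85.3 to 93.4), while Actn4 was at 69.0 (66.4 to 71.6) and 86.8 (83.6 to 90.1).

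Immediate early genes, which SRF regulates together with ETS cofactors, were more often higher than lower. Of 12 genes 11 had a higher value in Klf9-OE PGCs, as did 8997 of all 18742 genes. With intervals apart 6 were higher and none lower, and the median log2 fold change was 0.23. Egr1, an early growth response factor, was at 3.76 (3.32 to 4.20) in control and 8.45 (7.85 to 9.04) in Klf9-OE, and Dusp5, an ERK phosphatase, at 14.9 (13.8 to 16.1) and 31.2 (29.5 to 32.9), the 2 genes of this list that were at least 2-fold higher. Fos, a classical target of SRF, was level at 10.8 (9.87 to 11.7) and 10.9 (10.1 to 11.8). The most abundant were Mcl1 at 32.2 and 36.5, Ier3 at 28.6 and 31.5 and Junb at 21.9 (20.5 to 23.3) and 28.7 (27.3 to 30.2).

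Among 7 targets shared by myocardin-related factors and YAP, 3 were higher and 1 lower with intervals apart, and none by 2-fold. Thbs1 had the highest ratio, 1.86, at 4.12 (3.79 to 4.45) and 7.68 (7.19 to 8.18). Ankrd1 was at 22.7 (21.1 to 24.4) and 38.9 (37.2 to 40.7), a ratio of 1.71. Ankrd1 had an assembled record in control and an annotated one in Klf9-OE, and Thbs1 the reverse. Cyr61 was at 15.1 (14.0 to 16.2) and 19.5 (18.4 to 20.7). Ctgf, the most used readout of this group, was at 19.4 (18.2 to 20.5) and 20.6 (19.6 to 21.7). The median of the 7 was 0.18.

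**Figure D4:**
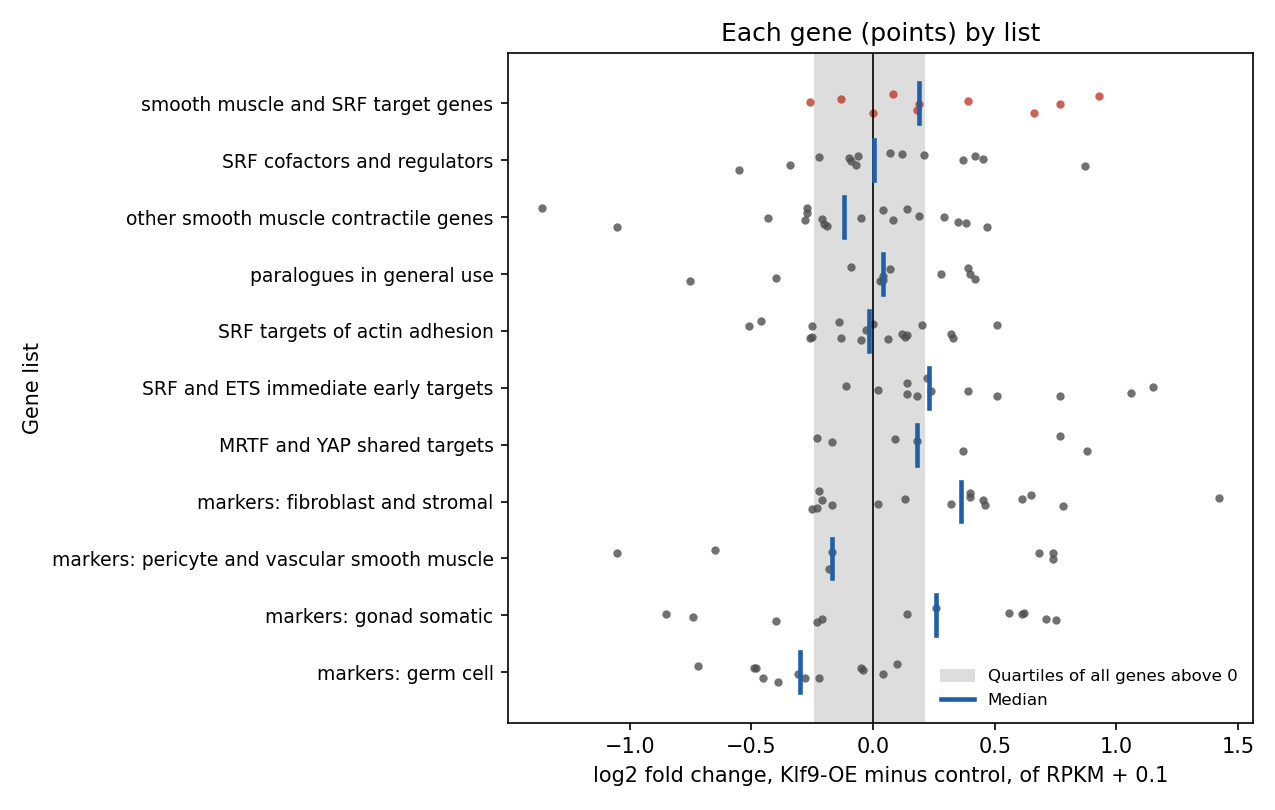
Log2 fold change of RPKM + 0.1, Klf9-OE minus control, of every gene in 11 lists (points), with the median of each list (bar) and the quartiles of all 18742 genes above 0 (grey, -0.24 to 0.21). Star, at 4.64 in the gonad somatic list, lies outside the axis and is not drawn. Germ cell markers have the lowest median, at -0.30, and fibroblast and stromal markers the highest, at 0.36.

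Other genes with a CArG box near the start were close to all genes. The 220 other genes that carried one and were above 0 had a median log2 fold change of 0.006, beside -0.018 for all 13585 genes with a promoter window. Of these 220 genes, 25 were higher and 22 lower by 2-fold or more, and among all 13585 genes these shares were 9.34% and 8.97%. Of the 134 that reached an RPKM of 1 in either library, with a median of -0.009, 5 were higher and 3 lower by this threshold, which is 3.73% and 2.24%, beside 3.30% and 3.25% of all 9204 such genes with a window. Within the set, boxes were present at Srf, which had a higher RPKM, at Vcl and Myl9, whose intervals overlapped, and at Cnn2, which was lower.

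Markers of other cells that use smooth muscle genes were detected in both libraries. Of 17 fibroblast and stromal markers 16 were matched, and 6 were higher and 2 lower with intervals apart. Their median log2 fold change was 0.36, above that of the smooth muscle and SRF target genes, whereas their summed RPKM was 269 in control and 260.3 in Klf9-OE, most of it Fn1 (128 and 109) and Vim (106 and 107). Among the defining collagens, Col1a1 was at 9.09 (8.55 to 9.63) and 12.5 (12.0 to 13.1), Col1a2 at 1.03 (0.855 to 1.20) and 1.68 (1.47 to 1.88), and Col3a1 at 5.26 (4.88 to 5.64) and 8.08 (7.66 to 8.51). Lum was listed at 0 in control and at 0.0318 in Klf9-OE, and S100a4, at 0.616 (0.0650 to 1.17) and 1.82 (0.960 to 2.67), exceeded 2-fold with overlapping intervals. Col6a1 was also higher, at 1.94 (1.67 to 2.22) and 2.60 (2.29 to 2.92), and Col5a1 was lower, at 7.60 (7.12 to 8.08) and 6.51 (6.10 to 6.92), as was Fn1. Like Tagln2, Col6a1 had an annotated record in control and an assembled one in Klf9-OE. The part of stromal cells in the values of Srf, Tagln and Tpm1 was not tested.

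Markers of pericytes and vascular smooth muscle split. The list summed to 88.2 in control and 77.6 in Klf9-OE, of which Mcam, at 84.6 (80.5 to 88.7) and 74.8 (71.2 to 78.4), made up nearly all. Notch3 was at 1.79 (1.60 to 1.97) and 1.10 (0.969 to 1.23), lower like Myh11, and of the 7 markers none was listed at 0. The potassium channel subunit Abcc9 was higher, at 0.208 (0.137 to 0.279) and 0.415 (0.327 to 0.504), and 4 of the 7 markers stayed below an RPKM of 1 in both libraries.

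Gonad somatic markers summed to 27.1 in control and 36.1 in Klf9-OE, with 5 of 13 higher and 1 lower with intervals apart, where 11.2% and 14.4% of all genes were. The most abundant were Amh, the Sertoli cell hormone, at 5.99 (5.20 to 6.78) and 9.29 (8.41 to 10.2), Gata4 at 6.21 and 7.47, and Wt1 at 3.41 and 5.64, all with intervals apart. Like Tagln2, Wt1 had an annotated record in control and an assembled one in Klf9-OE. Sox9, the Sertoli cell transcription factor, was the lower one, at 2.04 (1.76 to 2.31) and 1.09 (0.906 to 1.27). Star was listed at 0 in control, where its record was assembled, and at 2.39 in Klf9-OE. Of 12 germ cell markers, which all reached an RPKM of 1, 8 were lower and 1 higher with intervals apart, beside 20.2% and 14.8% of genes at that level. Their median log2 fold change was -0.30, and they summed to 2305 in control and 2042 in Klf9-OE. Of the lower ones, Pou5f1, Kit and Mael had an assembled record in control and an annotated one in Klf9-OE, like Tagln. The median log2 fold change of that class was -0.090. Tfap2c and Dnd1 had the reverse, Dppa3 and Nanos3 were assembled in both files, and Prdm1 was annotated in both. The sums of gonad somatic markers and of the smooth muscle and SRF target genes were thus both higher in Klf9-OE PGCs and that of germ cell markers lower. The gonad somatic sum includes Star and Wt1, and the germ cell sum Pou5f1, Kit and Mael, with the limits of their records. The sums of other somatic lists went both ways. Those of fibroblast and stromal markers (269 and 260.3) and of pericyte and vascular smooth muscle markers (88.2 and 77.6) were lower in Klf9-OE PGCs. Those of endothelial (20.3 and 30.7) and macrophage markers (4.38 and 5.80) were higher. The part of cell composition in these values was not tested.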

How the data were processed

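RNA-seq was analysed for 1 control and 1 Klf9-OE library of E13.5 PGCs. Single-end reads of 51 bases were aligned by the authors to the mouse genome (mm10) using TopHat2 and Bowtie. Cufflinks was run on each library, and the values deposited by the authors are FPKM per locus, with a lower and an upper 95% bound. Versions are not given in the sources used here. The submitters' processing notes also name Cuffdiff, whose results were not used here.

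Loci that share a symbol were added up. For log2 fold changes 0.1 was added to each value, so that changes of genes with low values are understated. Genes were counted at a ratio of at least 2 in either direction, without a pseudocount, and by intervals that did not overlap (18626 genes with a single locus in each file). The interval of a log2 fold change combines the half-widths of both libraries in quadrature. Starts are given 1-based. CArG boxes were searched in RefSeq promoter windows, and stretches of 51 bases, by exact match, in GENCODE M21 transcripts, on both strands.

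The genes of the set and all lists were chosen with earlier results of these data known. The genes named from a list were its 3 most abundant by mean RPKM, those changed at least 2-fold that reached an RPKM of 1 in either library and, for marker lists, those listed at 0 in both. The others named were chosen after their values were seen. Calculations were checked on simulated data. They were run in Python 3.11.15 with pandas 2.3.3, numpy 2.4.6 and scipy 1.17.1, and plots were drawn with matplotlib 3.10.9. Other pseudocounts, scalings, thresholds and filters were tried as alternatives.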

Additional observations from a re-analysis of the deposited data

How the results depend on the processing

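With 1 library per condition no replicate could be left out. No paired analysis was possible because each condition has 1 library. The number of genes of the set at least 2-fold higher was 1 as deposited, 0 when 1 was added to each RPKM, 3 at a threshold of 1.5-fold and 0 at 4-fold. Rescaling both libraries to the same sum of RPKM moved the median log2 fold change of all genes to 0.041, the number higher with intervals apart from 3 to 5, with Actg2 and Vcl added, the number lower from 1 to 0, and the ratio of the summed RPKM from 1.26 to 1.32. Widening the Klf9-OE interval by the square root of 2 left 3 higher and 0 lower, with Cnn2 lost. Over the 4 genes with an annotated record in both files, an alternative added after the data were seen, the median went from 0.19 to -0.07. The latter depends on Cnn1, whose interval ran from -0.82 to 0.56. Pseudocounts of 0.01 and 1, rescaling to the same upper quartile and an RPKM of at least 1 left the other values within their intervals. Implied reads over the depth ratio, added after the data were seen, put the log2 ratio of Srf at -0.23, so that its direction turned, that of Tagln at 0.24 and that of Vcl at -0.08, outside their intervals, with a median of 0.08 over the set. Implied reads follow the width of an interval and are not counts. Of 50 alternative values of single genes the other 47 lay within their intervals. The cause was not tested.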

Other observations

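The smooth muscle of vessels lies beside endothelium, and macrophages share the gonad, so their markers were also read. Of 7 endothelial markers 2 were higher and 1 lower with intervals apart, and the list summed to 20.3 in control and 30.7 in Klf9-OE PGCs. Pecam1, an adhesion molecule that germ cells are also known to use, made up most of the sum, at 16.8 (15.8 to 17.9) and 24.2 (20.9 to 27.4). Cdh5, the endothelial cadherin, was at 5.09 in Klf9-OE (4.57 to 5.60), 2.55 times its control value, while Tek, an angiopoietin receptor, was at 0.735 (0.574 to 0.896) and 0.439 (0.327 to 0.550). Emcn was at 0.0298 in control and listed at 0 in Klf9-OE.

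Macrophage markers were low, with 5 of 7 below an RPKM of 1 in both libraries and a summed RPKM of 4.38 and 5.80. Cd68 made up most of it, at 3.69 (2.94 to 4.44) and 4.11 (2.76 to 5.46), and Csf1r, the macrophage growth factor receptor, was at 0.307 (0.196 to 0.417) and 1.18 (0.834 to 1.53). Both had an annotated record in control and an assembled one in Klf9-OE. Aif1 was at 0.108 and 0.266, with intervals that began at 0 in both libraries.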
